A study of Mus musculus with 24 samples.

Results

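Tyrobp, Trem2 and the proteins that carry their signal were examined as 9 genes of the read-count table, chosen by name: the adaptors Tyrobp and Hcst, the receptors Trem2 and Clec5a, the kinase Syk, the exchange factor Vav1, the phospholipase Plcg2, and the phosphatases Inpp5d and Ptpn6. They are 9 of 54532 genes in the table, and each name occurred once. Striatum of 24 C57BL/6 mice was sequenced, 1 library per animal, with 6 animals (3 male, 3 female) in each of 4 genotypes. WT animals carried neither change, TyrobpKO animals lacked Tyrobp, Q175 animals were heterozygous for the Q175 allele, an expanded CAG repeat in the mouse Huntingtin gene used to model Huntington's disease, and Q175_TyrobpKO animals carried both changes. The labels describe neither the age of the animals nor how the deletion of Tyrobp was made, and no treatment was given in them. Replicate numbers serve here as names of libraries and pair nothing (1 to 3 male, 4 to 6 female).

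The adaptors of this pathway have almost no extracellular part and pair in the membrane with receptors that cannot signal alone. When TREM2, CLEC5A or a related receptor is engaged, Src-family kinases phosphorylate the ITAM of the TYROBP protein, SYK docks on it, and VAV1 and PLCG2 carry the signal to the cytoskeleton and to calcium, while INPP5D (SHIP1) and PTPN6 (SHP-1) oppose it. In brain these proteins are found mainly in microglia. In humans, loss of TYROBP or TREM2 causes Nasu-Hakola disease, and variants of TREM2, PLCG2 and INPP5D are linked to Alzheimer's disease risk.

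Libraries held 25.5 to 34.6 M counts (M, megacounts). Of the 9 genes, 8 passed the filter on low counts and were among 19667 genes tested; Hcst did not pass. The 15 microglial markers, none of them one of the 9 genes, were all detected, with a summed level of 285 to 407 CPM (counts scaled to library size, with TMM factors) per library, so the tissue held microglial RNA in all 24 libraries. Markers of B cells summed to 0 to 0.821 CPM, and markers of neutrophils to 0 to 3.005 CPM. The T and NK cell list summed to 36.6 to 94.9 CPM, and Cd4 was its only gene to pass the filter. Border macrophage markers summed to 11.3 to 22.6 CPM. One library, Q175 replicate 3, stood apart by choroid plexus markers at 4087 CPM, against 24.9 to 581 CPM in the other 23 libraries. Nothing in the labels says whether littermates were used, so p-values measure the spread between these animals. The animal names carry the prefix T in all 12 deleted animals, Q in the 6 Q175 animals and WT replicate 3, and WT in the other 5, so prefix and Tyrobp genotype cannot be told apart.

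The start sites of 8 of the 9 genes were found among the RefSeq windows of 250 bases before a start (build GRCm38.p6), with 2 windows for Syk. PU.1 is a lineage factor of microglia, where these proteins are mainly found in brain. Which cells the reads of these genes came from was not tested. A short motif of the PU.1 type, GAGGAA, was searched on both strands. It occurred in 5 of the 9 windows, those of Trem2, Clec5a, Vav1, Inpp5d and the second start of Syk, and in 23.3% of 32851 windows of the same length. It was not found in the windows of Hcst, Plcg2, Ptpn6 or the first start of Syk. The windows of the 3 genes below are those to which the results return most often: Trem2 (chr17:48346151-48346400, plus strand), Clec5a (chr6:40585806-40586055, minus strand) and Inpp5d (chr1:87620062-87620311, plus strand). Each is written 5′ to 3′ on the strand of its gene, and capitals mark the motif or its reverse complement TTCCTC.
Trem2: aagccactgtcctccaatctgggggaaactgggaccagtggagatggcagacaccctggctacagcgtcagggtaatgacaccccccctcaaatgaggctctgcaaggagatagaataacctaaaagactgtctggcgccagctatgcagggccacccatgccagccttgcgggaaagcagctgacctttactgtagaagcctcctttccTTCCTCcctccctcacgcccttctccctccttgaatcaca
Clec5a: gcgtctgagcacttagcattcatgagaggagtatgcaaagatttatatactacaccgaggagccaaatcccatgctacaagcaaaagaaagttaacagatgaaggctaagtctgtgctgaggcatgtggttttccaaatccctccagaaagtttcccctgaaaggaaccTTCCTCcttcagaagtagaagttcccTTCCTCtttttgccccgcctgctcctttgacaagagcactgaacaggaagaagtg
Inpp5d: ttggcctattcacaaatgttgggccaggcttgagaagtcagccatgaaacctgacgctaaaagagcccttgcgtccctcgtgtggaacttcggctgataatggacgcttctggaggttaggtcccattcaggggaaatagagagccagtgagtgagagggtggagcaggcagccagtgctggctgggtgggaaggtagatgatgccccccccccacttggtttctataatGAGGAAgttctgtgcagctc

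The motif begins 40 bases before the start of Trem2 and 20 bases before that of Inpp5d. In Clec5a it occurs at 81 and at 55 bases before the start. A match of letters is a description and says nothing about binding in these animals.

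Levels of different genes were compared per kilobase of the gene length in the table. In WT, Tyrobp was the most abundant of the 9 at 11.8 ± 1.72 CPM per kilobase (mean ± SD, n = 6). Trem2 followed at 3.08 ± 0.187, Inpp5d at 2.37 ± 0.148 and Ptpn6 at 1.71 ± 0.0909 CPM per kilobase. Each of these 4 stood above the next with no overlap between libraries. Vav1 (1.25 ± 0.125) and Plcg2 (1.18 ± 0.119) overlapped each other, and so did Clec5a (0.597 ± 0.0674) and Syk (0.463 ± 0.122), and Syk and Hcst (0.272 ± 0.205), all in CPM per kilobase. In the Q175 group the first 4 places were the same, with Tyrobp at 13.01 and Trem2 at 3.71 CPM per kilobase. After deletion, Tyrobp was 8th of 9 in both groups, at 0.511 CPM per kilobase in TyrobpKO and 0.390 in Q175_TyrobpKO, and Trem2 led at 2.80 and 2.59. In both groups the libraries of Trem2 overlapped those of Inpp5d, and those of Tyrobp overlapped those of Syk and Hcst.

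**Figure D1:**
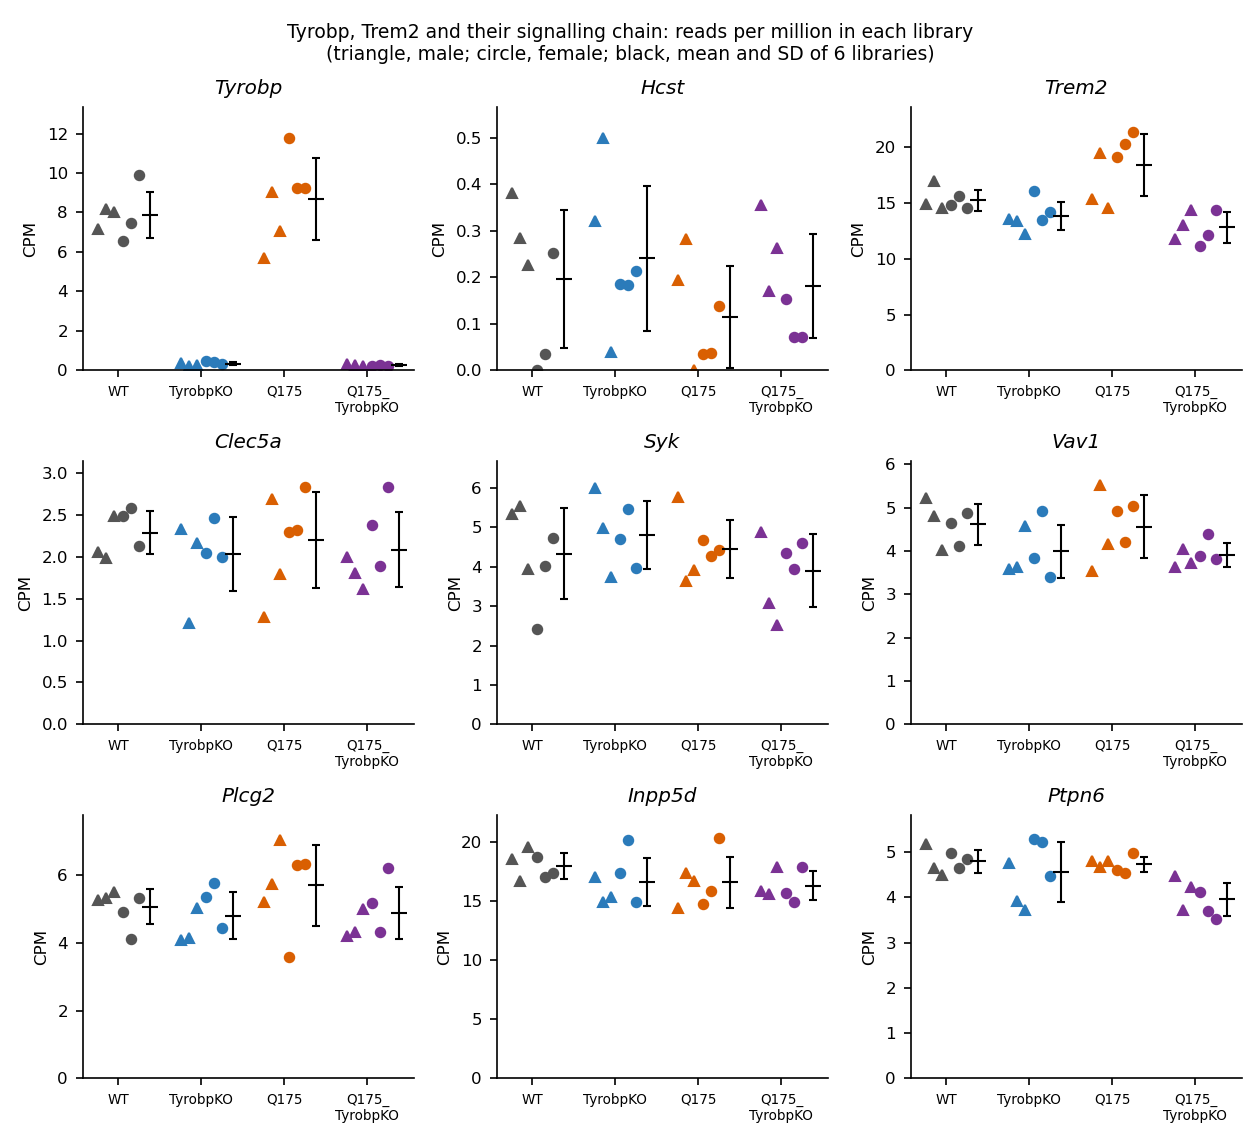
TMM-scaled CPM of the 9 genes in each of the 24 libraries, by genotype on the x axis, with triangles for males, circles for females and black marks for the mean and SD of 6 libraries. Tyrobp lies near 0 in the 12 deleted libraries, and all 6 Q175_TyrobpKO libraries lie below all 6 Q175 libraries for Trem2 and Ptpn6. Of these 2 genes only Trem2 passed the test between these groups, and the share of all genes that separate so was not counted.

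Tyrobp, which encodes the adaptor DAP12, was lost in both groups that carry the deletion. Tyrobp (ENSMUSG00000030579, chr7:30413760-30417585, plus strand) ranged from 6.56 CPM through a median of 7.74 to 9.89 CPM in WT, and from 5.69 through 9.15 to 11.8 CPM in Q175. In TyrobpKO it ranged from 0.214 through 0.336 to 0.448 CPM, and in Q175_TyrobpKO from 0.218 through 0.252 to 0.323 CPM. No deleted library came near an intact one, which matches the labels of all 24. The remaining signal was 58 reads over 6 TyrobpKO libraries (6 to 12 each) and 44 over 6 Q175_TyrobpKO libraries (6 to 10 each), or 4.33% and 2.996% of the mean level in WT and Q175. Which part of the gene these reads cover cannot be seen in a count per gene. The log2 fold change was -4.52 ± 0.18 (SE) for TyrobpKO against WT and -5.01 ± 0.19 for Q175_TyrobpKO against Q175 (adjusted p from edgeR 5.93e-16 and 1.06e-16).

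The Q175 allele itself did not move Tyrobp beyond the spread between animals. Q175 against WT gave 0.12 ± 0.14 on the log2 scale (95% interval -0.16 to 0.41, edgeR adjusted p = 0.668). With males alone this difference was -0.10 and with females alone 0.34 (edgeR adjusted p = 0.869 and 0.479). Within Q175, the 3 males lay between 5.69 and 9.05 CPM and the 3 females between 9.24 and 11.8 CPM, a split chosen after the values were seen. Over all 24 libraries the difference of males against females was -0.24 ± 0.12 (edgeR unadjusted p = 0.0547).

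Hcst encodes DAP10, an adaptor with a PI3-kinase motif in place of an ITAM, and lies tail to tail with Tyrobp (ENSMUSG00000064109, chr7:30417712-30419854, minus strand), 126 bases beyond its end. It was near the limit of detection: the 24 libraries held 0 to 14 reads each, with totals of 33 reads over the WT libraries, 42 over TyrobpKO, 19 over Q175 and 31 over Q175_TyrobpKO. In CPM the lowest, median and highest libraries were 0, 0.239 and 0.381 in WT, 0.0387, 0.200 and 0.499 in TyrobpKO, 0, 0.0875 and 0.283 in Q175, and 0.0726, 0.162 and 0.355 in Q175_TyrobpKO. All 4 groups overlapped, and the libraries without a read were WT replicate 4 and Q175 replicate 3. A count of 0 in a library allows up to 3 reads. The difference of means was 0.0441 CPM for TyrobpKO against WT (2-sided exact permutation test over 924 splits, p = 0.626) and 0.0669 CPM for Q175_TyrobpKO against Q175 (exact permutation p = 0.3095). Both Q175 comparisons were lower, by -0.0821 CPM against WT (exact permutation p = 0.292) and -0.0592 CPM against TyrobpKO (exact permutation p = 0.478). So the loss of its neighbour came with no detectable loss of Hcst reads at this depth. These are 4 tests in 1 family, none past 0.05 before adjustment.

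Trem2, the lipid-sensing receptor that signals through TYROBP, was the only one of the 8 tested genes besides Tyrobp itself that passed the test in any genotype contrast. Trem2 (ENSMUSG00000023992, chr17:48346401-48354147, plus strand) ranged from 14.5 through 14.9 to 17.0 CPM in WT and from 12.2 through 13.6 to 16.1 CPM in TyrobpKO. It ranged from 14.5 through 19.3 to 21.3 CPM in Q175 and from 11.1 through 12.6 to 14.4 CPM in Q175_TyrobpKO. All 6 Q175_TyrobpKO libraries lay below all 6 Q175 libraries. Of the TyrobpKO libraries, 5 of 6 lay below all 6 WT libraries, TyrobpKO replicate 4 being the exception, but that contrast did not pass the test. The share of all genes tested that separate in this way was not counted, for Trem2 or for Ptpn6 below.

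In Q175 striatum Trem2 changed with the deletion by -0.51 ± 0.09 on the log2 scale, a fitted change of -30.02% (95% interval -0.70 to -0.33, edgeR adjusted p = 0.00426). Leaving out any 1 library kept the call, with values from -0.57 to -0.47. When only the 12 libraries of the 2 groups were fitted the value stayed at -0.51 and the call was lost (edgeR adjusted p = 0.0721). With males alone it was -0.33 (edgeR adjusted p = 0.798), and with females alone -0.70 (edgeR adjusted p = 0.0357). Without the Q175 allele the deletion gave -0.14 ± 0.09 (edgeR adjusted p = 0.763), which did not pass. Averaged over both Htt genotypes, the deletion effect on Trem2 was -0.33 ± 0.06 (edgeR adjusted p = 0.0116), and 11 of 12 deleted libraries lay below the median of the 12 intact ones. This average lost its call with either sex alone, at -0.29 in males (edgeR adjusted p = 0.203) and -0.37 in females (edgeR adjusted p = 0.248).

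Whether the deletion acted more strongly on Trem2 with the Q175 allele was tested as an interaction. It was -0.37 ± 0.13 (edgeR unadjusted p = 0.00671), and did not pass over all genes (edgeR adjusted p = 0.999). For Q175 against WT, Trem2 gave 0.26 ± 0.09, a fitted level 20.1% above WT that did not pass (edgeR adjusted p = 0.0598). With DESeq2 the same difference passed (adjusted p = 0.0429), as it did in edgeR without WT replicate 2 (0.31, adjusted p = 0.0354), Q175 replicate 1 (0.31, adjusted p = 0.0336) or Q175 replicate 3 (0.32, adjusted p = 0.0209). Without Tyrobp, the Q175 allele gave -0.11 ± 0.09 (edgeR adjusted p = 0.589), and 3 of 6 Q175_TyrobpKO libraries lay below all TyrobpKO libraries. The comparisons with Q175 and those with WT share libraries, so their values are not independent of each other.

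Clec5a, a C-type lectin receptor that pairs with TYROBP, showed no genotype difference beyond its spread. Clec5a (ENSMUSG00000029915, chr6:40574894-40585821, minus strand) ranged from 1.99 through 2.31 to 2.59 CPM in WT, 1.21 through 2.11 to 2.46 CPM in TyrobpKO, 1.28 through 2.31 to 2.83 CPM in Q175 and 1.61 through 1.95 to 2.83 CPM in Q175_TyrobpKO. All groups overlapped, and the lowest values were TyrobpKO replicate 2 and Q175 replicate 1. The deletion gave -0.17 ± 0.18 against WT and -0.08 ± 0.18 against Q175 (edgeR adjusted p = 0.855 and 0.950), and the 95% intervals ran from -0.54 to 0.20 and from -0.45 to 0.29.

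Syk, the kinase that docks on the phosphorylated ITAM, passed the test in no contrast. Syk (ENSMUSG00000021457, chr13:52583173-52648792, plus strand) ranged from 2.41 through 4.39 to 5.54 CPM in WT and from 3.75 through 4.85 to 6.01 CPM in TyrobpKO. In Q175 it ranged from 3.64 through 4.35 to 5.77 CPM, and in Q175_TyrobpKO from 2.51 through 4.15 to 4.88 CPM. All 4 groups overlapped. Its deletion values differed in sign, 0.15 ± 0.18 against WT and -0.19 ± 0.18 against Q175 (edgeR adjusted p = 0.868 and 0.884), and its mean over both was -0.02 ± 0.13 (95% interval -0.28 to 0.25). Q175_TyrobpKO against TyrobpKO was -0.30 ± 0.18 (edgeR adjusted p = 0.402).

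Vav1, the exchange factor that links SYK to the actin cytoskeleton in blood-lineage cells, had deletion values below 0 that did not pass the test. Vav1 (ENSMUSG00000034116, chr17:57279100-57328031, plus strand) ranged from 4.03 through 4.72 to 5.22 CPM in WT, 3.39 through 3.74 to 4.92 CPM in TyrobpKO, 3.53 through 4.56 to 5.52 CPM in Q175 and 3.62 through 3.85 to 4.39 CPM in Q175_TyrobpKO. The groups overlapped, though 11 of 12 deleted libraries lay below the median of the intact ones. The 2 deletion values were close in size, -0.21 ± 0.13 and -0.22 ± 0.13, and their mean was -0.22 ± 0.09 (edgeR unadjusted p = 0.0221, adjusted p = 0.504). An unadjusted p under 0.05 was reached by 8.89% of all genes tested in that contrast.

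Plcg2, the phospholipase that turns the signal into calcium release, spread most widely in Q175. Plcg2 (ENSMUSG00000034330, chr8:117498291-117635142, plus strand) ranged from 4.10 through 5.28 to 5.50 CPM in WT and from 4.09 through 4.73 to 5.76 CPM in TyrobpKO. It ranged from 3.59 through 6.01 to 7.02 CPM in Q175 and from 4.20 through 4.65 to 6.21 CPM in Q175_TyrobpKO. The groups overlapped, although 4 of 6 Q175 libraries lay above all WT libraries. No contrast passed: Q175 against WT was 0.17 ± 0.14 (edgeR adjusted p = 0.537) and the mean deletion effect -0.16 ± 0.10 (edgeR adjusted p = 0.627). By sex, the mean deletion effect was -0.35 ± 0.14 in males (edgeR adjusted p = 0.300) and 0.04 ± 0.14 in females. The difference between the sexes, -0.38 ± 0.20, did not pass (edgeR unadjusted p = 0.0647, adjusted p = 0.590).

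Inpp5d, the lipid phosphatase SHIP1 that removes the product of PI3-kinase, passed the test in no contrast. Inpp5d (ENSMUSG00000026288, chr1:87620312-87720507, plus strand) ranged from 16.7 through 18.0 to 19.6 CPM in WT and from 14.9 through 16.2 to 20.2 CPM in TyrobpKO. It ranged from 14.4 through 16.3 to 20.4 CPM in Q175 and from 14.95 through 15.8 to 17.9 CPM in Q175_TyrobpKO. All groups overlapped. Where Trem2 fell in Q175 striatum, Inpp5d gave -0.02 ± 0.09 (95% interval -0.20 to 0.15, edgeR adjusted p = 0.9745), an interval that does not reach the fitted fall of Trem2. Its value for TyrobpKO against WT was -0.11 ± 0.09 and for Q175 against WT -0.12 ± 0.09 (edgeR adjusted p = 0.798 and 0.467).

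Ptpn6, the tyrosine phosphatase SHP-1, passed the test in no contrast, though its libraries did not overlap between the 2 Q175 groups. Ptpn6 (ENSMUSG00000004266, chr6:124720707-124738714, minus strand) ranged from 4.48 through 4.75 to 5.18 CPM in WT, 3.71 through 4.61 to 5.30 CPM in TyrobpKO, 4.53 through 4.73 to 4.97 CPM in Q175 and 3.52 through 3.92 to 4.46 CPM in Q175_TyrobpKO. All 6 Q175_TyrobpKO libraries lay below all 6 Q175 libraries, with a narrow gap between 4.46 and 4.53 CPM. The difference was -0.25 ± 0.11 (edgeR unadjusted p = 0.0266), and it did not pass over all genes (edgeR adjusted p = 0.818). In that contrast 6.04% of all genes tested had an unadjusted p under 0.05. TyrobpKO against WT was -0.07 ± 0.11 (edgeR adjusted p = 0.894). An antisense gene, Gm20531, overlaps Ptpn6 and held 33 reads in all; the use of strand in counting is not stated.

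Counted together, the test called 1 of the 8 tested genes in TyrobpKO against WT (Tyrobp), where 0.117% of all genes were called. It called 2 in Q175_TyrobpKO against Q175 (Tyrobp and Trem2; 0.158% of all genes called) and 2 in the mean deletion effect (0.208%). It called none in Q175 against WT, where 9.63% of all genes were called, and none in Q175_TyrobpKO against TyrobpKO, where 5.86% were. For these 2 contrasts the smallest unadjusted p was that of Trem2 (0.00632) and Ptpn6 (0.0746), so 1 and 0 of the 8 reached an unadjusted p under 0.05, where 22.6% and 18.4% of all genes did. With DESeq2 these contrasts called 1 (Trem2) and 0 of the 8, and with limma-voom 0 and 0. The interaction called 0 of 8 and 0% of all genes, and 1 of 8 (Trem2) was at an unadjusted p under 0.05, against 3.59% of all genes. A difference of the deletion effect between the sexes was called for 0 of 8 (0.0203% of all genes), with 0 of 8 at an unadjusted p under 0.05 (8.77% of all genes). For the Q175 effect by sex, the test called 0 of 8 and 0% of all genes, with 0 of 8 at an unadjusted p under 0.05 (3.02% of all genes). DESeq2 and limma-voom also called 0 of 8 in the interaction and in both differences between the sexes. Males against females, added after the values were seen, called 0 of 8 (0.0814% of all genes), with 1 of 8 (Clec5a) at an unadjusted p under 0.05 (4.05% of all genes).

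**Figure D2:**
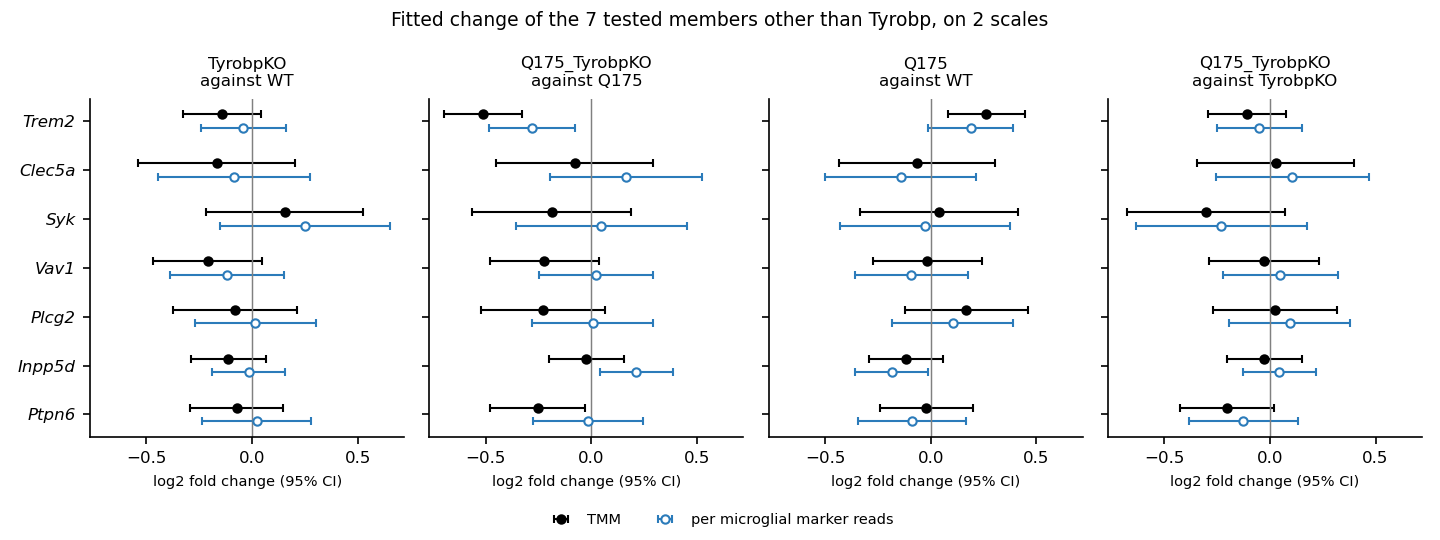
Log2 fold change with 95% interval (x axis) of the 7 tested genes other than Tyrobp (y axis), in panels by contrast, relative to the TMM-scaled library (black) and relative to the summed microglial markers (blue, open). Trem2 in Q175_TyrobpKO against Q175, at -0.51 and -0.28, keeps its interval below 0 on both scales, while Ptpn6 moves from -0.25 to -0.02.

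In bulk tissue, fewer microglia and less RNA per microglial cell cannot be told apart, so the members were set beside the microglial markers. The summed level of the 15 markers was 340 to 391 CPM in WT, 285 to 391 CPM in TyrobpKO, 353 to 407 CPM in Q175 and 307 to 368 CPM in Q175_TyrobpKO. The test called 0 of 15 markers in every contrast, and their median log2 fold change was -0.09 for TyrobpKO against WT, -0.25 for Q175_TyrobpKO against Q175 and 0.06 for Q175 against WT. The median of the markers had the same sign as Trem2 between the Q175 groups; its part in the result was not tested beyond the scale change that follows.

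A second fit took the summed markers as the size of each library. It shifted the median of all genes by 0.24 in Q175_TyrobpKO against Q175, by 0.10 in TyrobpKO against WT and by 0.17 in the mean deletion effect. On this scale 24.9%, 0.102% and 28.2% of all genes were called in these 3 contrasts, in that order. Per marker level, Trem2 was -0.28 ± 0.10 in Q175_TyrobpKO against Q175 (edgeR unadjusted p = 0.00818, adjusted p = 0.0397), against -0.51 per library. As 24.9% of all genes were called, a larger unadjusted p passed here than per library. The adjusted p of Trem2 on the 2 scales are thus not alike. The call was lost when any of Q175 replicates 2, 4, 5 or 6 or Q175_TyrobpKO replicates 1, 2, 4 or 5 was left out, with values from -0.28 to -0.24. For TyrobpKO against WT it was -0.04 ± 0.10 (edgeR adjusted p = 0.873) and for the mean deletion effect -0.16 ± 0.07 (edgeR adjusted p = 0.0776). Inpp5d took the other sign on this scale in Q175_TyrobpKO against Q175, at 0.21 ± 0.08 (edgeR adjusted p = 0.0597), against -0.02 per library. It passed only when Q175 replicate 6 (0.28), Q175_TyrobpKO replicate 2 (0.24) or TyrobpKO replicate 2 (0.21) was left out. Per marker level the test called 1 of 8 genes in TyrobpKO against WT, 2 in Q175_TyrobpKO against Q175 and 1 in the mean deletion effect.

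Among animals of one genotype and sex, each member was compared with the microglial markers. After the mean of each genotype and sex was removed, Clec5a gave Pearson's r of 0.717 and Spearman's rho of 0.688 over 24 libraries (permutation p = 0.00599 and 0.00694, adjusted over all genes 0.102 and 0.105). Inpp5d gave 0.571 and 0.654 (permutation p = 0.00245 and 0.00163, adjusted p = 0.0733 and 0.0538), and Plcg2 gave 0.475 and 0.57 (permutation p = 0.0183 and 0.0114, adjusted p = 0.162 and 0.127). Vav1 followed at 0.443 and 0.384 (permutation p = 0.0799 and 0.139). The receptor Trem2 gave 0.197 and 0.142 (permutation p = 0.462 and 0.597), Ptpn6 -0.068 and -0.085 (permutation p = 0.836 and 0.750) and Syk -0.24 and -0.28 (permutation p = 0.352 and 0.269). Tyrobp, over the 12 intact libraries, gave 0.503 and 0.378 (permutation p = 0.308 and 0.356). So 3 of the 8 genes passed an unadjusted p of 0.05 by Pearson's r, where 19.2% of all genes tested did, and 0 of 8 passed after adjustment, where 0.122% did.

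Without the 2 libraries farthest from the median marker level, r was 0.525 for Clec5a, where the unadjusted p rose to 0.0536, so that its relation rests in part on those 2. It was 0.562 for Inpp5d, 0.442 for Plcg2, 0.533 for Vav1, 0.282 for Trem2, -0.241 for Ptpn6, -0.315 for Syk and 0.306 for Tyrobp. Within males and within females, 12 libraries each, Clec5a gave r of 0.872 and 0.490, Inpp5d 0.555 and 0.608, and Trem2 0.146 and 0.265. Syk gave -0.53 in males and 0.146 in females. Within single genotypes, added after seeing the data with 6 libraries each and sex means kept, Trem2 gave r of -0.675 and rho of -0.771 in WT, 0.106 and 0.200 in TyrobpKO, 0.814 and 0.771 in Q175, and 0.781 and 0.657 in Q175_TyrobpKO. The exact permutation p of r for Trem2 were 0.115, 0.786, 0.0514 and 0.0667 in that order, and those of rho 0.103, 0.714, 0.103 and 0.175. Adjusted over 30 such tests none passed (smallest for Trem2 0.257 and 0.440). With 6 libraries no rho could have passed by itself over 30 tests, so the result for rho says little. Without the 2 farthest libraries r of Trem2 was -0.732, 0.196, -0.284 and 0.837, so its value in Q175 rests on those 2. The value over all genotypes therefore joins values of both signs. Member and marker levels come from the same libraries and share their depth and dissection, and no difference between the correlations of any pair of members was tested.

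**Figure D3:**
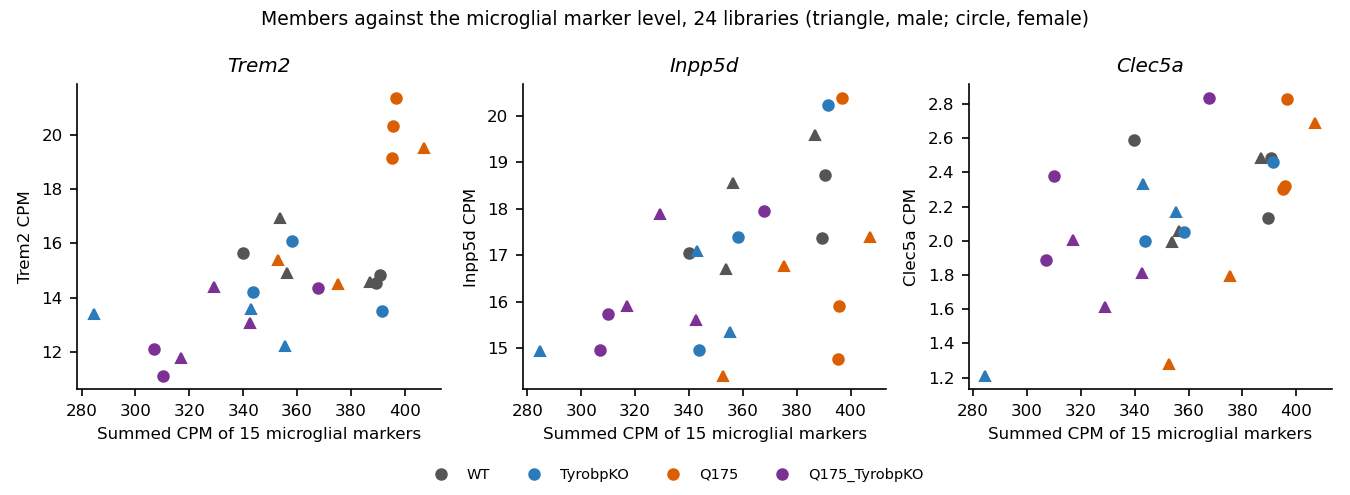
CPM of Trem2, Inpp5d and Clec5a (y axes) against the summed CPM of 15 microglial markers (x axis) in 24 libraries, coloured by genotype, with triangles for males and circles for females. With genotype and sex means removed, r over the 24 libraries was 0.717 for Clec5a and 0.197 for Trem2, whose Q175 libraries all lie above its Q175_TyrobpKO libraries.

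The genes whose pattern was most like that of Trem2 over the 24 libraries were named by the mean absolute difference in standardized log2 CPM, as a description. They were Itgb2 (0.475), Lyz2 (0.477), Cst7 (0.550), C1qb (0.579) and Itgax (0.581 standard deviations), where the median over 19666 genes was 1.11. For Tyrobp over the 12 intact libraries they were C1qb (0.256), Rtl8b (0.282), Rplp2 (0.290), Gstp1 (0.294) and Anapc11 (0.294), with a median of 1.09. C1qb, a complement component, stood near both genes.

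The rest of the pathway was covered by 88 genes in 8 lists by role, of which 67 were tested. In each deletion contrast 1 of them was called, where 0.117% to 0.208% of all genes were, and in Q175 against WT 9 were. Cd33, an inhibitory sialic-acid receptor, was the gene called lower in the deleted groups. It spanned 10.97 through 11.96 to 14.98 CPM in WT, 6.54 through 8.25 to 8.55 CPM in TyrobpKO, 11.002 through 12.7 to 15.4 CPM in Q175 and 5.74 through 6.54 to 6.95 CPM in Q175_TyrobpKO. No deleted library overlapped an intact one. For Cd33, and for Pik3cd, Lgals3 and Kirrel2 below, the share of all genes tested without such overlap was not counted.

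The log2 fold change of Cd33 was -0.69 ± 0.10 without the Q175 allele and -0.997 ± 0.10 with it (adjusted p from edgeR 0.000343 and 5.18e-07). Cd33 (chr7:43524216-43544428, minus strand) is on the chromosome of Tyrobp, 13.1 megabases away. Chromosome 7 held 29 of the 41 genes called in the mean deletion effect and 7.98% of all genes tested. With females alone, Cd33 was -0.61 in TyrobpKO against WT and no longer passed (edgeR adjusted p = 0.688). Whether its change depends on where it lies was not tested.

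No other gene of the receptor, ligand, kinase, scaffold, PI3-kinase, effector or inhibitor lists passed in the deletion contrasts. Over all 67, the median log2 fold change was -0.05 in TyrobpKO against WT and -0.08 in Q175_TyrobpKO against Q175. The medians over all genes were 0.000895 and -0.00135. In these contrasts 41 and 49 of 67 were negative, where 49.7% and 50.3% of all genes were. The kinases, 9 tested, had medians of -0.11 and -0.20, and the receptors, 6 tested of 22, -0.09 and -0.16. Itgb2, the integrin chain CD18, was nearest to the threshold in Q175_TyrobpKO against Q175 after Cd33, at -0.51 ± 0.12 (edgeR adjusted p = 0.106). Fcer1g, the ITAM adaptor of Fc receptors and the only one of 3 other ITAM adaptors tested, gave -0.39 ± 0.13 (edgeR adjusted p = 0.661). Itgb2 and Fcer1g were named after their values were seen. With DESeq2, 3 of the 67 were called in that contrast and in the mean deletion effect, and without Q175_TyrobpKO replicate 6 edgeR called 3 in each.

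With Tyrobp present, the Q175 allele raised 6 and lowered 3 of the 67 genes, a share of the same order as the 9.63% of all genes called. Of the 6 PI3-kinase genes, 3 rose: Pik3cd, the catalytic subunit of blood cells, by 0.33 ± 0.07, Pik3r5 by 0.41 ± 0.13 and the adaptor Pik3ap1 by 0.62 ± 0.18 on the log2 scale (adjusted p from edgeR 0.00208, 0.0412 and 0.0230). Pik3cd ranged from 18.6 through 21.1 to 22.1 CPM in WT and from 23.3 through 25.3 to 31.0 CPM in Q175, with no overlap. The kinase gene Tec rose by 0.73 ± 0.23 and the exchange factor gene Vav3 by 0.49 ± 0.14 (edgeR adjusted p = 0.0401 and 0.0195). Tec lost its call without any of WT replicates 1, 3, 4, 5 or 6 or Q175 replicates 1, 3 or 6 (0.65 to 0.72), and Pik3r5 without any of WT replicates 3, 5 or 6 or Q175 replicates 1, 2, 5 or 6 (0.35 to 0.41). Vav3 lost its call without WT replicate 1 or 2 (0.46 each), and Pik3ap1 without WT replicate 1 (0.59), WT replicate 2 (0.59) or Q175 replicate 2 (0.47). With only the WT and Q175 libraries fitted, Pik3ap1 (0.61), Pik3r5 (0.40) and Tec (0.74) lost their calls (edgeR adjusted p = 0.0651, 0.133 and 0.0560), and without the filter on low counts Pik3r5 (0.40) and Tec (0.72) did (edgeR adjusted p = 0.110 and 0.0653). Males alone gave 3 calls among the 67 in this contrast and females alone 0.

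Lgals3, which encodes galectin-3, a TREM2 ligand, had the largest rise of the 9 at 1.72 ± 0.39 (edgeR adjusted p = 0.00431). It ranged from 0.142 through 0.270 to 0.527 CPM in WT and from 0.620 through 0.900 to 1.60 CPM in Q175, all 6 above WT. Its call was lost with males alone (1.89) and with females alone (1.52; edgeR adjusted p = 0.0692 and 0.270). The neutrophil marker S100a9 was also higher in Q175 than in WT, at 2.49 ± 0.73 (edgeR adjusted p = 0.0284) and 0.200 to 1.83 CPM in Q175, and its part in the Lgals3 value was not tested. The lower genes were Dok3, an adaptor that dampens ITAM signals, at -0.75 ± 0.15, Inppl1, the SHIP2 gene, at -0.38 ± 0.08, and Gsk3b at -0.34 ± 0.07 (edgeR adjusted p = 0.00122, 0.00108 and 0.00156). Inppl1 is the near relative of Inpp5d, whose own value in this contrast was -0.12.

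Without Tyrobp, 3 of the 67 genes were called higher and 4 lower with the Q175 allele, where 5.86% of all genes were called. Vav3 (0.58 ± 0.14), Pik3r5 (0.43 ± 0.13) and Pik3cd (0.28 ± 0.07) were higher, and Dok3 (-0.57 ± 0.15), Gsk3b (-0.33 ± 0.07), Inppl1 (-0.32 ± 0.07) and the clusterin gene Clu (-0.28 ± 0.06) were lower in Q175_TyrobpKO than in TyrobpKO. The edgeR adjusted p were 0.00904, 0.0409, 0.0109, 0.0211, 0.00390, 0.00829 and 0.00800. Dok3 lost its call without any of TyrobpKO replicates 1, 5 or 6 or Q175_TyrobpKO replicates 2 or 4 (-0.54 to -0.51), and Pik3r5 without any of TyrobpKO replicates 2 to 6 or Q175_TyrobpKO replicates 1, 2, 4 or 5 (0.41 to 0.45). Without the filter on low counts Pik3r5 (0.43) did not pass (edgeR adjusted p = 0.0992), and males alone gave 0 calls among the 67 and females alone 1. The other named genes of the Q175 contrast did not pass here, and the interaction passed for 0 of 67, so no difference between the 2 Q175 contrasts was shown for any of them. Neurons and other cells express many of these genes too. Of striatal projection neuron markers, 8 of 9 were called lower in Q175 against WT and 4 of 9 in Q175_TyrobpKO against TyrobpKO. Of astrocyte markers, 1 of 5 and 2 of 5 were lower in these contrasts. In the first, 1 of 5 choroid plexus markers was higher. In the second, 1 of 4 endothelial and 1 of 5 oligodendrocyte markers were lower. The part of other cell types in these values was not tested.

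**Figure D4:**
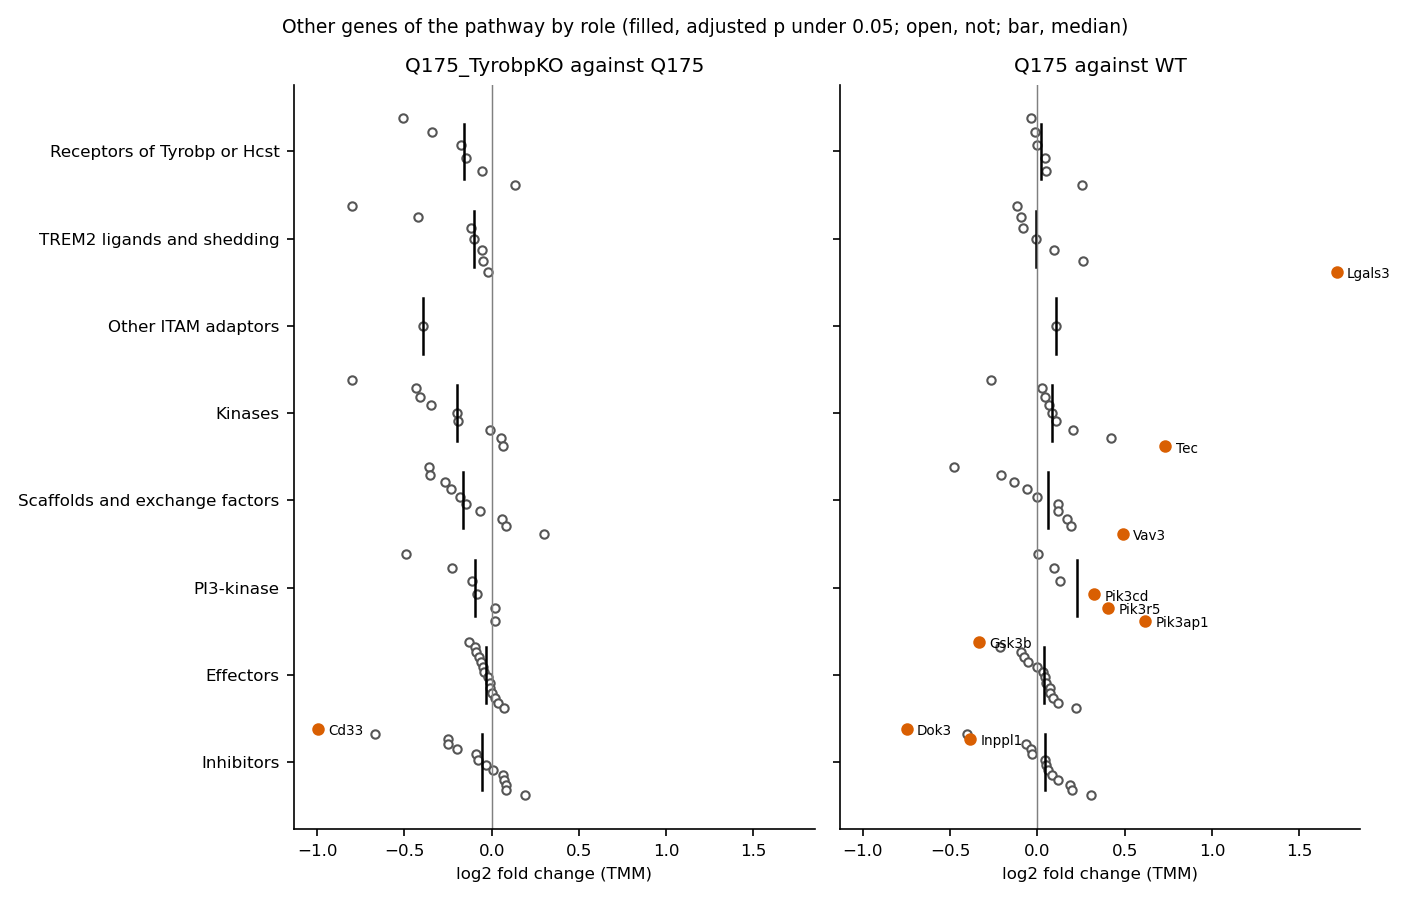
Log2 fold change (x axis) of the tested genes of 8 pathway lists (y axis), in panels by contrast, with filled points for genes at an adjusted p under 0.05 and a bar for the median of each list. The panel of Q175_TyrobpKO against Q175 holds 1 filled point, Cd33, and the PI3-kinase list lies to the right in Q175 against WT (median 0.228).

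Because Hcst sits beside Tyrobp, the other genes of the locus were examined. Within 100 kilobases of Tyrobp lie 15 other genes, of which 7 were tested. Kirrel2, a nephrin-like adhesion protein gene (chr7:30447534-30457690, minus strand), ranged from 6.82 through 8.65 to 9.61 CPM in WT and from 9.13 through 11.96 to 12.5 CPM in TyrobpKO, and from 4.64 through 5.74 to 6.68 CPM in Q175 and from 9.06 through 9.597 to 11.3 CPM in Q175_TyrobpKO. The 2 Q175 groups did not overlap, while the other pair met between 9.13 and 9.61 CPM.

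Kirrel2 was higher in Q175_TyrobpKO than in Q175, at 0.76 ± 0.10 (edgeR adjusted p = 0.000154), and in the mean deletion effect, by 0.61 ± 0.07 (edgeR adjusted p = 8.25e-06). In TyrobpKO against WT alone it gave 0.45 ± 0.10 and did not pass (edgeR adjusted p = 0.117). It was lower in Q175 than in WT, at -0.53 ± 0.11 (edgeR adjusted p = 0.00138). The next 4 by p in the mean deletion effect did not pass: Aplp1 (0.13 ± 0.04), Syne4 (-0.40 ± 0.13), Nphs1 (0.34 ± 0.15) and Lrfn3 (0.10 ± 0.06), with edgeR adjusted p of 0.393, 0.429, 0.549 and 0.602. Lrfn3 was called higher in Q175_TyrobpKO against TyrobpKO (0.33 ± 0.08, edgeR adjusted p = 0.0160), a call lost without Q175_TyrobpKO replicate 2 (0.29, edgeR adjusted p = 0.0520). With males or females alone, the call of Kirrel2 in Q175_TyrobpKO against Q175 was lost too, at 0.64 and 0.87 (edgeR adjusted p = 0.348 and 0.0924).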

How the data were processed

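Per the labels' protocols, Trizol RNA from frozen striatum of 1 hemisphere was sequenced on a NovaSeq instrument. The authors deposited raw read counts per gene, whole numbers without normalization. STAR, featureCounts and DESeq2 are named in the submitters' processing notes without versions, and the notes name the build GRCh38, whereas the coordinates in the table are those of mouse GRCm38. Use of strand in counting is not given in the sources used here.

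Counts were tested with edgeR 4.0.16 in R 4.3.3 (quasi-likelihood, TMM, filterByExpr, robust, means per genotype plus sex). Called means a Benjamini-Hochberg adjusted p under 0.05 over 19667 genes. The biological coefficient of variation was 16.2%. CPM used TMM-scaled library sizes. Sex interactions came from a fit with a mean per genotype and sex. Correlations used log2 CPM with genotype and sex means removed and 100000 shuffles within genotype and sex. Shuffling over all libraries was kept as an alternative. The scripts were first tested on simulated data.

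The 9 genes and all lists were chosen with earlier results of these data known. All 9 are named; from the pathway lists, called genes are named, at most 4 per list by smallest p, and of the neighbours the 5 of smallest p in the mean deletion effect. Alternatives were RLE normalization, no filter, no sex term, only the groups compared, DESeq2 1.42.0, limma-voom (limma 3.58.1), a fit that was not robust, either sex alone, and leaving out each library. For Hcst, permutation tests compared mean CPM.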

Additional observations from a re-analysis of the deposited data

Results flagged for a closer look

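Clec5a in TyrobpKO replicate 2 was 1.21 CPM, far from the other 5 libraries of its genotype relative to their range. The 36 groups of 6 libraries (9 genes in 4 genotypes) were examined for such a library and 1 was found; chance gives about 1 in 20 groups. This library also had the lowest sum of microglial markers of all 24 (285 CPM) and was the lowest of its genotype for Inpp5d (14.9 CPM); the part of the marker level in the Clec5a value was not tested.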

How the results depend on the processing

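No paired analysis was possible because the replicate numbers only name libraries. Of 629 fold changes under alternatives to normalization, filter, covariate, test, libraries fitted or sex, 564 kept their direction and side of the threshold, 45 lost a call, 1 gained one and 19 turned sign; of 1920 with 1 library left out the numbers were 1828, 43, 6 and 43. No value called in the reported fit turned sign. The cause of these changes was not tested. Members called fell from 2 to 1 in Q175_TyrobpKO against Q175 with only the libraries compared and with males alone, and from 2 to 1 in the mean deletion effect with males alone and with females alone. In Q175 against WT they rose from 0 to 1 with DESeq2 and were 0 to 1 with 1 library left out, and per marker level in Q175_TyrobpKO against Q175 they were 1 to 3. Shuffling over all libraries called 2 correlations by Pearson's r in place of 0, those of Clec5a and Inpp5d. By Spearman's rho it called that of Plcg2 as well (adjusted permutation p = 0.0443). In a simulation of 2000 genes this shuffling called 61 unrelated genes, and shuffling within genotype and sex called 10, so these calls are the less reliable.

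Signs turned as follows, on the log2 scale. With limma-voom the Vav1 interaction was 0.0074. With males alone, Syk was -0.0062 in TyrobpKO against WT, Inpp5d 0.0247 in Q175_TyrobpKO against Q175, Tyrobp -0.0998 and Syk -0.1581 in Q175 against WT. In Q175_TyrobpKO against TyrobpKO, males alone gave Trem2 2e-04, Clec5a -0.0738, Inpp5d 0.0595 and Ptpn6 0.0024, and the interactions of Tyrobp, Vav1 and Ptpn6 were 0.0694, 0.0401 and 0.0097. With females alone, Plcg2 and Ptpn6 were 0.1124 and 0.0466 in TyrobpKO against WT, Syk and Plcg2 0.1372 and 0.0321 in the mean deletion effect, Clec5a and Vav1 0.0511 and 0.06 in Q175 against WT, and the Inpp5d interaction -0.0564. Pearson's r of Ptpn6 was 0.002 with the mean of log2 markers and 0.065 in females, and that of Syk 0.146 in females.

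With 1 library left out, values spanned 0 for Clec5a (-0.1782 to 0.0311) and Inpp5d (-0.0594 to 0.0426) in Q175_TyrobpKO against Q175 and Syk (-0.0842 to 0.0377) in the mean deletion effect. In Q175 against WT they did so for Clec5a (-0.1743 to 0.0384), Syk (-0.0825 to 0.1223), Vav1 (-0.0888 to 0.0469) and Ptpn6 (-0.0324 to 0.0121). In Q175_TyrobpKO against TyrobpKO they did so for Clec5a (-0.0628 to 0.1151), Vav1 (-0.069 to 0.0467), Plcg2 (-0.0606 to 0.0903) and Inpp5d (-0.0601 to 0.0433), in the interaction for Clec5a (-0.0104 to 0.1992) and Vav1 (-0.076 to 0.0593), and per marker level in TyrobpKO against WT for Trem2 (-0.0967 to 0.0102) and Inpp5d (-0.0412 to 0.0172).

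Alternatives for the pathway lists and the neighbours were added after seeing the data. Pathway genes called in Q175_TyrobpKO against Q175 were 3 with DESeq2, 2 with limma-voom and 1 to 3 with 1 library left out, in place of 1; in the mean deletion effect 3 with DESeq2 and 1 to 3; in Q175 against WT 3 in males and 0 in females, in place of 9; in Q175_TyrobpKO against TyrobpKO 0 in males and 1 in females, in place of 7; and in TyrobpKO against WT 0 in females. Neighbours called were 1 in TyrobpKO against WT with DESeq2 (0 to 1 with 1 library left out), 0 in each sex alone in Q175_TyrobpKO against Q175, in Q175 against WT (1 to 2) and in Q175_TyrobpKO against TyrobpKO (0 to 1).

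Over all genes, DESeq2 called 52 in Q175_TyrobpKO against Q175, 84 in the mean deletion effect and 2 in the interaction, in place of 31, 41 and 0; limma-voom and the fit that was not robust called 1 each in the interaction, and leaving out 1 library 0 to 2. Males alone gave 65, 11, 759 and 104 calls and females alone 8, 11, 187 and 290 in TyrobpKO against WT, Q175_TyrobpKO against Q175, Q175 against WT and Q175_TyrobpKO against TyrobpKO, in place of 23, 31, 1893 and 1153; females alone gave 19 in the mean deletion effect. Hcst had 0 to 14 reads a library, which limits the precision of its values.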

Other observations

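Hcst reads were unevenly divided by sex, a comparison chosen after the values were seen. The 12 male libraries held 86 reads (mean 0.251 CPM) and the 12 female libraries 39 reads (mean 0.115 CPM), and a permutation test within genotype (100000 resamples, 2-sided) gave p = 0.00922. Male means were higher in all 4 genotypes: 0.297 against 0.0957 CPM in WT, 0.286 against 0.195 CPM in TyrobpKO, 0.159 against 0.0699 CPM in Q175 and 0.263 against 0.0996 CPM in Q175_TyrobpKO. Deleted against intact libraries gave 0.211 and 0.155 CPM (permutation p = 0.247), and carriers against non-carriers of the Q175 allele 0.148 and 0.218 CPM (permutation p = 0.142). These 3 tests were not adjusted for each other. Clec5a, the only tested member under an unadjusted p of 0.05 in males against females, gave -0.27 ± 0.13 on the log2 scale (edgeR unadjusted p = 0.0444, adjusted p = 0.9995).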
